A study of Arabidopsis thaliana with 9 samples.

Results

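In seedlings of Arabidopsis thaliana, 16 genes were expressed after jasmonate and were at or near 0 in both groups of seedlings that had not received it. They were chosen from 33602 genes by their own levels: at least 2 CPM (counts of the gene per 1000000 counts of its library) in each of 3 jasmonate libraries, and at most 0.5 CPM in each of 6 mock libraries. These 16 genes are GRX480, JAZ8, AT1G14250, AT1G32970, PAP1, AT1G66100, AT1G73325, AT2G26380, JOX4, DXPS1, AT3G44870, JOX3, scpl30, MSRB8, LCR85 and AT5G28520. Because the rule used the levels in all 9 libraries, these are given as a description with no test.

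RNA with poly(A) tails was sequenced from whole seedlings 6 days old, grown in liquid medium with sucrose, in 3 groups of 3 libraries. The mock WT group is Col-0, the common laboratory accession, given ethanol diluted 5000-fold. The JA WT group is Col-0 given jasmonate at 5 µM for 3 h (the labels write the unit as µm, taken here as micromolar), and the mock lhp1 group is the lhp1 mutant (lhp1-3 in the names of the table's columns) given the ethanol solution. LHP1 is a chromodomain protein that works with Polycomb complexes to keep genes silent. Mutant seedlings given jasmonate were not analysed here, so no value below says what the 16 genes do in lhp1 after jasmonate.

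Jasmonate is the hormone plants make on wounding and attack by chewing insects. Its active conjugate brings JAZ repressors to the receptor COI1, the repressors are destroyed, and MYC transcription factors are freed to act at genes whose promoters hold a G-box or a close variant of it. Among the genes switched on are those of defence proteins, of the hormone's own synthesis, of enzymes that inactivate it and of the JAZ repressors themselves, which closes a feedback loop. In whole seedlings fewer cells expressing a gene and less RNA per cell cannot be told apart.

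The total count lay between 18081553 and 31454984 per library. At those totals 0.5 CPM is 9 to 13 counts in the mock libraries, and 2 CPM is 45 to 63 counts in the JA WT libraries. TFL2, the gene that encodes LHP1, was read at 11.2, 9.13 and 10.8 CPM in the mutant against 19.9, 14.3 and 18.5 CPM in mock WT, so its transcript was lower but present in the mutant. Mesophyll markers (RBCS1A, LHCB1.1 and CA1) summed to 14338 to 18788 CPM in mock WT, to 8506 to 8737 in mock lhp1 and to 17204 to 18446 in JA WT. Root markers (PYK10, CASP1, ESB1, COBL9 and EXPA7) summed to 2925 to 4321, 5335 to 5745 and 4308 to 4438 CPM in the same order, most of it PYK10, which rose by 0.45 on the log2 scale in JA WT over mock WT (edgeR adjusted p = 0.0177). The other 4 root markers were not called, at -0.33 for CASP1, -0.23 for ESB1, -0.28 for COBL9 and 0.11 for EXPA7. Floral organ genes (AG, AP3, PI and SEP3) summed to 27.9 to 126 CPM in mock WT, to 226 to 228 in mock lhp1 and to 20.4 to 24.6 in JA WT. The highest mock WT value belonged to replicate 2, in which AP3 stood at 16.9 CPM against 0.522 and 0.412 in replicates 1 and 3. In these genes that library lies toward the mutant. Without it the ratios of JA WT to mock WT described below run from 8.93 for PAP1 to 259 for AT3G44870, and both values are given for each gene whose ratio it moved by over 1.5 times.

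The motif AACGTG, a variant of the G-box through which MYC factors are known to bind, stood in the 250 bases before the annotated start of 7 of the 16 genes (43.8%, against 7.6% of all protein-coding genes), and the full G-box CACGTG in that of 1, JAZ8 (6.25% against 6.58%). Those 8 stretches are shown because the rule used no sequence. They were read from the TAIR10.1 genome with RefSeq gene starts, run 5′ to 3′ in the direction of the gene, and carry the motif in capitals. CACGTT is AACGTG read on the other strand.
JOX3: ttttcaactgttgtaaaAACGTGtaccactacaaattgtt
AT3G44870: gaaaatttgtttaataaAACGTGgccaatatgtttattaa
AT1G14250: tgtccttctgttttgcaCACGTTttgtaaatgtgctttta
MSRB8: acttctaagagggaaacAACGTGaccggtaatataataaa
AT1G73325: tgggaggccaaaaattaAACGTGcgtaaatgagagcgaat
AT2G26380: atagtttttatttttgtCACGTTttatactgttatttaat
GRX480: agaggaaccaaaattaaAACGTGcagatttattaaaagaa
JAZ8: tggaaaaaaacattttcCACGTGagag

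The shown stretches lie at chr3:20769436-20769475 (minus strand) for JOX3, chr3:16382100-16382139 (plus strand) for AT3G44870, chr1:4868251-4868290 (plus strand) for AT1G14250, chr4:11588477-11588516 (minus strand) for MSRB8, chr1:27568345-27568384 (minus strand) for AT1G73325, chr2:11228226-11228265 (minus strand) for AT2G26380, chr1:10014290-10014329 (minus strand) for GRX480 and chr1:10596325-10596351 (plus strand) for JAZ8. The first base of the motif lay 48 bases before the start of JOX3, 102 before AT3G44870, 78 before AT1G14250, 126 before MSRB8, 86 before AT1G73325, 125 before AT2G26380, 56 before GRX480 and 10 before JAZ8.

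JAZ8 and PAP1 are the regulators of transcription among the 16. JAZ8 (AT1G30135, chr1:10596352-10597341, plus strand) is a JAZ repressor that lacks the canonical degron and so resists the hormone-driven destruction of its relatives. It stood at 3.08, 2.64 and 3.78 CPM in JA WT replicates 1 to 3, from 79, 59 and 119 counts. The mock WT libraries held 2, 2 and 0 counts of it and the mock lhp1 libraries 1, 4 and 1. Its pooled CPM was 63.5 times as high in JA WT as in mock WT, with an exact 95% counting interval of 24.5 to 235 (41.9, 16.2 to 155, without mock WT replicate 3, which had 0 counts). PAP1 (AT1G56650, chr1:21233555-21235292, minus strand), also called MYB75, activates anthocyanin pigment genes. It had 95, 60 and 65 counts in JA WT (3.71, 2.68 and 2.07 CPM), against 10, 8 and 6 in mock WT and 1, 2 and 8 in mock lhp1. By its point value this was the smallest contrast of the 16 genes, 9.06 times mock WT (5.93 to 14.4). The counting intervals of DXPS1 (10.4 to 27.7) and GRX480 (11.1 to 41.2) overlap with that of PAP1. The lowest JA WT library of PAP1 was the one closest to the threshold of 2 CPM.

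JOX3 and JOX4 act on the hormone itself: JOX enzymes are 2-oxoglutarate oxygenases that hydroxylate jasmonic acid to an inactive form. JOX3 (AT3G55970, named JRG21 in the annotation, chr3:20766735-20769410, minus strand) has 3 exons. It stood at 22.4, 22.0 and 24.3 CPM in JA WT, from 574, 493 and 765 counts, and held 4, 6 and 3 counts in mock WT and 0, 6 and 5 in mock lhp1. The ratio to mock WT was 139 (81.2 to 262). JOX4 (AT2G38240, chr2:16012535-16014991, minus strand) stood at 20.5, 18.7 and 19.7 CPM in JA WT, with 1, 9 and 3 counts in mock WT and 1, 2 and 2 in mock lhp1. Its ratio to mock WT was 119 (69.3 to 224), and 254 (99.1 to 934) without mock WT replicate 2. These were also the steadiest of the 16 across the JA WT libraries, with a coefficient of variation of 4.58% for JOX4 and 5.33% for JOX3.

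AT3G44870 (chr3:16382219-16383605, plus strand) is annotated as an S-adenosylmethionine-dependent methyltransferase and is the neighbour and close relative of FAMT, a farnesoic acid methyltransferase. It stood at 16.9, 22.7 and 20.9 CPM in JA WT, from 432, 508 and 656 counts, with 2, 5 and 2 counts in mock WT and 3, 7 and 5 in mock lhp1. The ratio of JA WT to mock WT was the highest of the 16 by its point value, 175 (92.0 to 384), and that to mock lhp1 was 76.6 (46.3 to 137). The counting intervals of the ratios to mock WT of AT3G44870, JOX3, JOX4, AT1G73325 and AT2G26380 overlap. Those of AT1G14250 (46.9 to 114), MSRB8 (38.2 to 131), JAZ8 (24.5 to 235) and scpl30 (26.3 to 379) overlap with them too. Counting error thus leaves no order among all these genes.

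AT1G73325 (chr1:27567419-27568281, minus strand, 1 exon) encodes a Kunitz-type protease inhibitor, a class known in plants for blocking the gut proteases of insects. It stood at 11.2, 8.23 and 5.60 CPM in JA WT, with 3, 0 and 1 counts in mock WT and 3, 1 and 2 in mock lhp1. Its ratio to mock WT was 160 (62.1 to 588), 436 (78.0 to 17256) without mock WT replicate 1, which leaves 1 mock WT count, and 105 (40.8 to 387) without replicate 2. AT1G66100 (chr1:24605538-24606722, minus strand) encodes a thionin, a small cysteine-rich antimicrobial peptide. It stood at 8.32, 4.02 and 5.34 CPM in JA WT, with 6, 6 and 2 counts in mock WT and 6, 2 and 6 in mock lhp1. LCR85 (AT4G22210, chr4:11752395-11752816, plus strand) encodes a defensin-like protein of 87 residues, the shortest of the 16 proteins. Its JA WT libraries held 74, 86 and 72 counts (2.89, 3.85 and 2.29 CPM), its mock WT libraries 0, 1 and 6, and its mock lhp1 libraries 0, 0 and 1. A single mock WT library thus carried most of its mock counts, and the ratio to mock WT of 32.7 (15.6 to 82.3) became 151 (26.9 to 5996) without replicate 3, against the 1 count left.

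AT5G28520 (chr5:10492977-10495011, plus strand) encodes a jacalin-type mannose-binding lectin. It stood at 3.32, 4.83 and 4.93 CPM in JA WT, with 4, 3 and 3 counts in mock WT and 2, 1 and 4 in mock lhp1, a ratio to mock WT of 34.4 (18.5 to 72.3). AT1G32970 (chr1:11948650-11951982, minus strand, 10 exons) encodes a subtilisin-like serine protease of 734 residues, the longest of the 16 proteins. It stood at 5.00, 6.08 and 7.25 CPM in JA WT, with 1, 8 and 2 counts in mock WT and 4, 1 and 1 in mock lhp1. Its ratio to mock WT of 44.2 (24.5 to 89.1) became 107 (36.2 to 518) without mock WT replicate 2, against 3 counts. scpl30 (AT4G15100, chr4:8625830-8629620, plus strand, 10 exons) encodes a serine carboxypeptidase-like protein, a family that includes acyltransferases of secondary metabolism. Its JA WT libraries held 91, 58 and 87 counts (3.55, 2.59 and 2.77 CPM), its mock WT libraries 0, 1 and 2, and its mock lhp1 libraries 2, 5 and 3. The ratio to mock WT was 77.7 (26.3 to 379) against 3 counts, and 154 (27.3 to 6099) without replicate 3.

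MSRB8 and GRX480 are redox proteins. MSRB8 (AT4G21840, chr4:11586980-11588373, minus strand) is a methionine sulfoxide reductase, which repairs oxidised methionine in proteins. It stood at 13.1, 8.81 and 9.03 CPM in JA WT, with 1, 6 and 5 counts in mock WT and 4, 5 and 8 in mock lhp1, and its ratio to mock WT was 67.2 (38.2 to 131). GRX480 (AT1G28480, chr1:10013434-10014256, minus strand, 1 exon) is a glutaredoxin that binds TGA transcription factors and, when overexpressed, is known to dampen jasmonate-induced defensin expression. It had 73, 82 and 71 counts in JA WT (2.85, 3.67 and 2.26 CPM), 2, 5 and 4 in mock WT and 2, 5 and 7 in mock lhp1. At 20.3 times mock WT (11.1 to 41.2) and 11.6 times mock lhp1 (6.79 to 21.6), it had the smallest ratio to mock lhp1 of the 16 genes by point value. Intervals of other genes, such as PAP1 (7.89 to 29.3) and scpl30 (9.08 to 35.9), overlap with it.

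AT1G14250, DXPS1 and AT2G26380 complete the set. AT1G14250 (chr1:4868346-4871488, plus strand) encodes a nucleoside phosphatase of the apyrase kind. It stood at 28.0, 15.2 and 16.8 CPM in JA WT, with 7, 13 and 2 counts in mock WT and 6, 1 and 8 in mock lhp1. The 13 counts were 0.484 CPM, the value nearest to the ceiling from inside, and the ratio to mock WT of 71.2 (46.9 to 114) became 114 (60.2 to 251) without that library. DXPS1 (AT3G21500, chr3:7573560-7576721, minus strand) is annotated as a deoxyxylulose phosphate synthase, after the entry enzyme of the plastid isoprenoid pathway. It stood at 4.57, 2.50 and 4.58 CPM in JA WT, with 3, 11 and 5 counts in mock WT and 1, 4 and 4 in mock lhp1. Its ratio to mock WT of 16.5 (10.4 to 27.7) became 25.7 (12.9 to 60.2) without mock WT replicate 2. AT2G26380 (chr2:11226488-11228123, minus strand, 1 exon) encodes a leucine-rich repeat protein. Its JA WT libraries held 96, 94 and 118 counts (3.75, 4.20 and 3.75 CPM), its mock WT libraries 0, 0 and 2, and its mock lhp1 libraries 2, 1 and 3. The ratio to mock WT was 152 (41.8 to 1262) against 2 counts, and 100.1 (27.5 to 830) without replicate 2, which removes a library at 0. Both counts lay in replicate 3, so without it no ratio can be given.

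**Figure D1:**
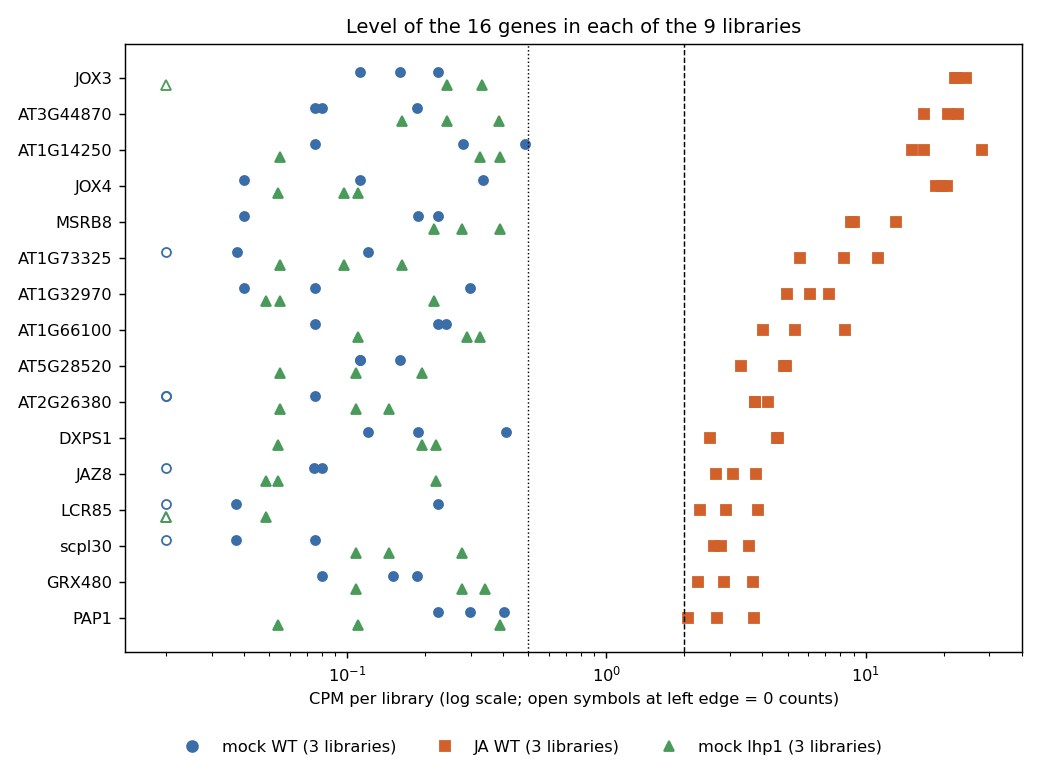
Level of each of the 16 genes in CPM on a log axis, 1 point per library, coloured by group (3 mock WT, 3 JA WT and 3 mock lhp1 libraries), with genes ordered by their mean in JA WT and values of 0 counts as open symbols at the left edge. The JA WT group means run from 2.82 to 22.9 CPM and every JA WT point lies above every mock point of its gene, as the rule requires.

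Added up, the 16 genes summed to 153, 133 and 135 CPM in JA WT replicates 1 to 3, against 1.85, 3.13 and 1.80 in mock WT and 2.05, 2.60 and 3.30 in mock lhp1. Low in the mock groups did not mean 0 counts in every library. Every JA WT library was above every mock WT library for all 16, as the rule requires, and for 8.11% of the genes tested. Of the 48 values in each group, 6 were 0 counts in mock WT, 3 in mock lhp1 and 0 in JA WT, and no gene was at 0 in all 3 libraries of a group. The group means ran from 0.0250 to 0.308 CPM in mock WT and from 0.0162 to 0.294 CPM in mock lhp1. The counting intervals of the ratios cover counting error only, not the spread between seedling samples. For 9 of the 16 genes leaving out 1 library moved the ratio by over 1.5 times, and each ratio so moved is given above.

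All 16 passed the filter of edgeR's quasi-likelihood fit and were among the genes called higher in JA WT than in mock WT, where 8.62% of the 20986 genes tested were called higher. Their log2 fold changes ran from 3.30 for PAP1 to 7.52 for AT3G44870, with a median of 6.05, and nothing is read from these calls since the rule used the contrast. The same holds for JA WT minus mock lhp1, where 25.1% of all genes were called higher and the 16 ran from 3.81 to 7.99 on the log2 scale.

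Between mock lhp1 and mock WT, where the rule capped both groups, edgeR called 0 of the 16 genes higher (background 11.1%) and 0 lower (background 14.4%). DESeq2 called 0 as well, and 1 gene, scpl30, had an unadjusted p under 0.05 in edgeR's fit. The rule capped both groups, so nothing is read from these counts of calls. Without mock WT replicate 2 edgeR again called 0. Without replicate 3 it called 1 higher in mock lhp1, AT2G26380, whose other 2 mock WT libraries hold 0 counts, and nothing is read from that call either. scpl30 had 10 counts in mock lhp1 against 3 in mock WT, 4.57 times as high in pooled CPM (1.18 to 25.9). It was the 1 gene of the 16 whose interval left out a ratio of 1. It is named for that result and the rule capped both groups, so the interval is no test. The mean was higher in mock lhp1 than in mock WT for 9 genes and lower for 7.

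Levels between genes were compared per kilobase of exon, as the mean RPKM (CPM per kilobase of exon) ± SD of the 3 JA WT libraries. AT3G44870 came first at 16.8 ± 2.50 RPKM, followed by JOX4 at 12.5 ± 0.571, MSRB8 at 11.7 ± 2.74, JOX3 at 10.6 ± 0.562, AT1G14250 at 10.2 ± 3.59, AT1G73325 at 9.67 ± 3.25 and LCR85 at 8.93 ± 2.33. AT1G66100 at 5.94 ± 2.22 and JAZ8 at 3.93 ± 0.716 came next. The lower part of the order held GRX480 at 3.55 ± 0.860, AT5G28520 at 2.78 ± 0.576, AT1G32970 at 2.68 ± 0.495, PAP1 at 2.54 ± 0.748, AT2G26380 at 2.38 ± 0.160, scpl30 at 1.88 ± 0.323 and DXPS1 at 1.60 ± 0.492. Neighbours in this order differed by more than the SD of both genes at 3 places, between AT3G44870 and JOX4, between LCR85 and AT1G66100 and between AT2G26380 and scpl30, and the other neighbours did not. The spread over the JA WT libraries was widest for AT1G66100 (37.3%), AT1G14250 (35.0%) and AT1G73325 (33.6%), given as coefficients of variation. All 3 were highest in JA WT replicate 1. That library was the highest of the 3 for 7 of the 16 genes and for 33.6% of all genes tested.

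The JA WT threshold alone was met by 17174 genes and the ceiling in both mock groups by 12503, of which 12478 had no JA WT library at 2 CPM. Few genes lay in between. Of the 1809 genes called higher after jasmonate, 1723 were above 0.5 CPM in a mock WT library, and 50 were under the ceiling in both mock groups but below 2 CPM in a JA WT library. The genes just inside the JA WT threshold, by their lowest library, were PAP1 at 2.07 CPM, GRX480 at 2.26, LCR85 at 2.29, DXPS1 at 2.50 and scpl30 at 2.59. Just outside it were GA20OX5 at 1.97, AT3G32047 at 1.97, JAZ13 at 1.72, ABCG40 at 1.61 and AT3G45638 at 1.56. Just inside the ceiling, by their highest mock library, were AT1G14250 at 0.484 CPM, DXPS1 at 0.410, PAP1 at 0.402, MSRB8 at 0.388 and AT3G44870 at 0.387. Just outside it were PLP5 at 0.524, AT1G54020 at 0.559, AT1G70720 at 0.562, HPL1 at 0.595 and AAE12 at 0.602. At each limit the nearest values on either side differ by less than the SD over libraries of the gene inside it, PAP1 in JA WT and AT1G14250 in mock WT.

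**Figure D2:**
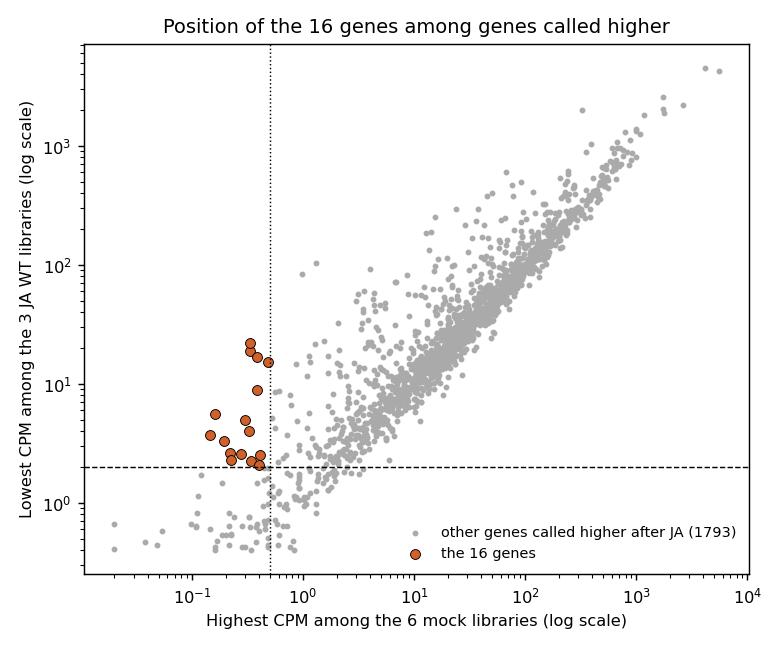
Each point is 1 of the 1809 genes called higher in JA WT than in mock WT, placed by its highest CPM in the 6 mock libraries and its lowest CPM in the 3 JA WT libraries, both on log axes. The dotted and dashed lines mark 0.5 and 2 CPM, and the 16 chosen genes, in orange, are the points left of the first and above the second.

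Requiring the ceiling in only 1 of the mock groups would have added 11 genes. AT1G76640, AT3G22250 and HPL1 were at or under 0.5 CPM in mock WT and passed it in a mock lhp1 library. Their mean CPM was 0.253, 0.149 and 0.215 in mock WT, 0.459, 0.566 and 0.440 in mock lhp1, and 7.48, 9.22 and 2.79 in JA WT. The reverse held for MKK7, AIG1, AT1G54020, AAE12, AT1G70720, FAMT, GH9B15 and PLP5, which were under the ceiling in mock lhp1 and passed it in a mock WT library. Mean CPM of AIG1 was 2.05 in mock WT, 0.313 in mock lhp1 and 5.49 in JA WT, and that of GH9B15 was 1.37, 0.180 and 2.34. For the other 6 the mock WT mean lay between 0.340 CPM for PLP5 and 0.934 CPM for MKK7. These 11 genes were picked by which mock group passed the ceiling, so no test between the mock groups is given for them.

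To show which choices hang on 1 replicate, the rule was applied to 2 replicates of each group and read in the third. It chose 21, 19 and 21 genes when replicate 1, 2 or 3 was left out. In the libraries left out, JA WT was above both mock libraries for 19, 19 and 21 of them and reached 2 CPM for 18, 17 and 20. All thresholds were met there by 16 each time, which are the 16 genes by construction. The same 16 are part of each of the other counts too. Only the remaining genes were free to pass or miss, so these counts do not measure how well the choice repeats. Among the misses, FAMT had 0.974 CPM in mock WT replicate 3.

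Most genes of the jasmonate pathway that responded were kept out of the set by their level in mock WT. Over 5 lists of 74 genes with known roles, 64 were tested and 57 were called higher, none lower, against 8.62% higher and 7.07% lower among all genes tested. Of those 57, 4 are among the 16 genes (JAZ8, JOX3, JOX4 and PAP1), 46 were above 0.5 CPM in a mock WT library, and 7 were low there but did not reach 2 CPM in every JA WT library. Nothing is read from the calls of those 4, since the rule used the contrast. The lists were chosen with earlier results of these data known, and no difference from the background was tested. Of the JAZ repressors 11 of 13 were called higher, at a median log2 fold change over the 13 of 3.42 against 0.00045 over all genes tested. Of the 11, 1 is JAZ8, 8 were above 0.5 CPM in a mock WT library, and JAZ7 and JAZ13 were low there but did not reach 2 CPM in every JA WT library. All 12 jasmonate synthesis genes called higher, of 13 tested, were above the ceiling in a mock WT library. In the turnover list 10 of 10 tested were called higher, among them 2 of the 16 genes, and JMT was the 1 that was low in mock WT and below 2 CPM in a JA WT library. Wound and defence outputs had 12 of 14 called higher and 0 among the 16, and transcription factors 12 of 14 with PAP1 among the 16.

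The genes lie on all 5 chromosomes, with 7 on chromosome 1, 2 on chromosome 2, 3 each on chromosomes 3 and 4, and 1 on chromosome 5, and no 2 of them are adjacent. They have 1 to 10 exons, with a median of 3 against 4 over protein-coding genes. Their proteins run from 87 to 734 residues with a median of 358 against 354.

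Several of the genes sat beside another jasmonate-responsive gene. The nearest measured gene on each side of the 16 gave 32 adjacent genes, none of them among the 16, of which 23 were tested. Of the 23, edgeR called 9 higher in JA WT than in mock WT (39.1%, against 8.62% of all genes tested) and 1 lower (4.35%, against 7.07%). Their median log2 fold change was 0.32 against 0.00045 over all genes. The 9 stood beside 7 of the 16 genes, and the other 9 of the 16 had no neighbour called higher. Of the 32, 9 were at or under 0.5 CPM in all 9 libraries and 5 of these had no count at all.

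The largest change among neighbours was that of FAMT (chr3:16379571-16381434), 784 bases before AT3G44870 on the same strand. Its CPM was 0.0803, 0.0372 and 0.974 in mock WT, 0.432, 0.111 and 0.194 in mock lhp1, and 151, 83.2 and 94.9 in JA WT, a log2 fold change over mock WT of 8.32 ± 0.47 (approximate SE here and below; edgeR adjusted p = 3.28e-07). FAMT thus had the pattern of the 16 genes and was kept out by mock WT replicate 3 alone. AT2G26370 (chr2:11224565-11226235), annotated as an MD-2-related lipid recognition protein, lies 252 bases from AT2G26380 on the other strand, with the ends of the genes facing each other. It rose from 1.00, 2.42 and 1.24 CPM in mock WT to 40.4, 45.3 and 43.3 in JA WT, by 4.90 ± 0.21 on the log2 scale (edgeR adjusted p = 3.62e-08).

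MSRB8 lies between 2 relatives that both rose. MSRB7 (chr4:11584346-11585542), 1437 bases away, went from 14.5, 23.9 and 13.2 CPM in mock WT to 233, 249 and 215 in JA WT, by 3.88 ± 0.17 on the log2 scale (edgeR adjusted p = 5.04e-08). MSRB9 (chr4:11591116-11592425), 2742 bases away on the other side, went from 91.5, 111 and 89.5 to 391, 362 and 321 CPM, by 2.004 ± 0.09 (edgeR adjusted p = 6.57e-08). The defensin-like gene AT4G22212 (chr4:11753842-11754752), 1025 bases from LCR85, went from 33.3, 61.8 and 49.8 to 376, 404 and 395 CPM, by 3.15 ± 0.16 (edgeR adjusted p = 1.22e-07). These 3 neighbours were thus well expressed in mock WT, unlike the genes beside them.

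The other 4 neighbours called higher were AT1G14240 beside AT1G14250, SZF1 beside JOX3, ACD1 beside AT3G44870 and AT1G30130 beside JAZ8, named here after their values were seen. They changed by 0.86 ± 0.21, 0.57 ± 0.11, 0.54 ± 0.09 and 0.46 ± 0.11 on the log2 scale, with edgeR adjusted p of 0.0156, 0.00474, 0.00145 and 0.0177. AT1G14240 lies 334 bases from its neighbour, but SZF1 lies 6809 and AT1G30130 6142 bases away. The median gap over the 32 adjacent genes was 1140.5 bases and the longest 6809. The call of AT1G14240 was lost without JA WT replicate 2 or 3 (adjusted p of 0.0513 and 0.0749), as was that of AT1G30130 (0.0881 and 0.0579). Both were lost in a fit of the 2 groups alone (0.0574 and 0.0589), and AT1G30130 with scaling by total counts (0.0828). The potassium channel gene KT2/3, on the other side of LCR85, fell by 0.94 ± 0.26 (edgeR adjusted p = 0.0329), and that call was lost without mock WT replicate 2 (-0.52, adjusted p = 0.0616) and on leaving out any single library of JA WT or of mock lhp1 (adjusted p of 0.0504 to 0.113). ACD1 overlaps AT3G44870 by 11 bases on the same strand, and reads there could be counted for either.

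Of the 32 adjacent genes, 6 resembled their neighbour by protein (at least 40% identity over at least 70% of it), and of the 5 of these that were tested 5 were called higher (background 8.62%). Of the 26 that did not, 18 were tested, 4 were called higher and 1 lower (background 8.62% and 7.07%).

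**Figure D3:**
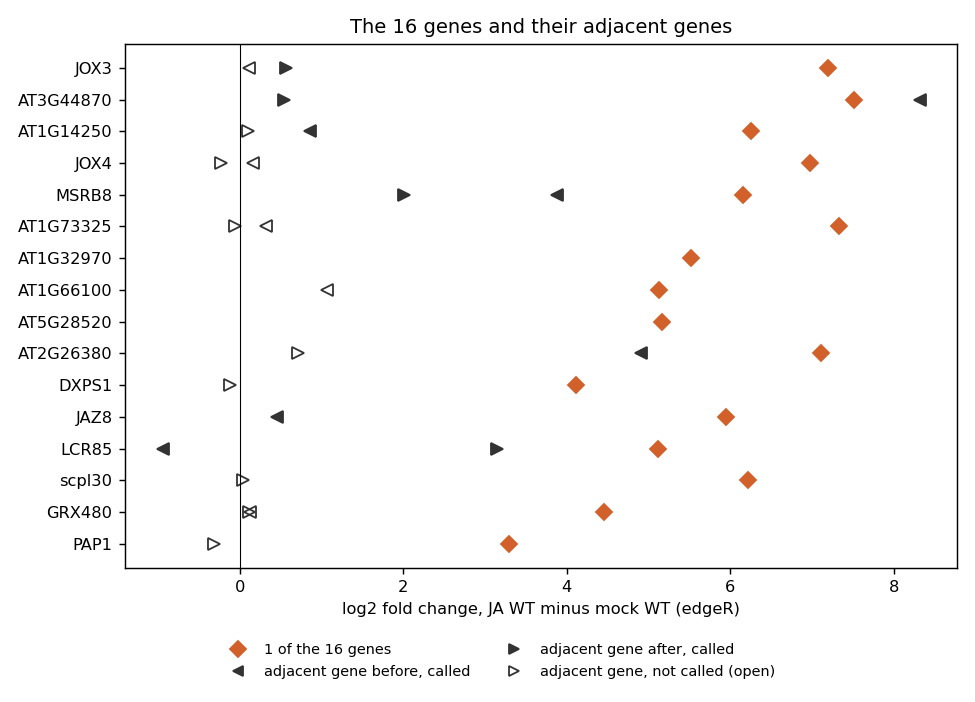
Log2 fold change, JA WT minus mock WT, of each of the 16 genes (diamonds) and of its neighbours that were tested, with left and right triangles for the neighbour before and after it on the chromosome, filled where the adjusted p was below 0.05. No error bars are drawn. FAMT at 8.32 and AT2G26370 at 4.90 are the neighbours furthest to the right, and KT2/3 at -0.94 is the 1 called lower.

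For 15 of the 16 genes the annotation held a closest relative at or above 40% protein identity over 70% of the length, AT1G73325 being the exception. These relatives were 14 separate genes outside the 16. Of the 12 tested, 7 were called higher (58.3%, against 8.62% of all genes tested) and 2 lower (16.7%, against 7.07%), with a median log2 fold change of 0.62.

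By alignment score JOX2 is the closest relative of both JOX3 (62.8% identity over 98.6% of its length) and JOX4 (56.9%), and JOX3 and JOX4 share 54.1%. JOX1 has a higher identity to JOX3, 64.9% over 95.9% of its length, and was at or under 0.5 CPM in all 9 libraries. JOX2 stood at 24.4, 39.9 and 29.1 CPM in mock WT and 416, 391 and 381 in JA WT, a rise of 3.80 ± 0.13 on the log2 scale (edgeR adjusted p = 1.49e-08). JOX2 was thus well expressed without jasmonate, whereas JOX3 and JOX4 had at most 9 counts in any mock library. JAZ7, at 55.8% identity to JAZ8, rose from 0.120, 0.0745 and 0.150 CPM to 1.48, 2.28 and 1.75, by 4.06 ± 0.38 (edgeR adjusted p = 2.13e-05), and missed the threshold of 2 CPM in JA WT replicates 1 and 3.

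FAMT, MSRB7, AT1G14240 and AT4G22212 are each both adjacent to and closest to a gene of the 16, so these 4 stand in both the 9 neighbours and the 7 relatives called higher. FAMT has 92.5% identity to AT3G44870 and MSRB7 96.5% to MSRB8. The longest run of transcript shared letter for letter is 70 bases for FAMT and AT3G44870 and 216 bases for MSRB7 and MSRB8. The sources used here do not state how reads that match both were counted, so the levels of AT3G44870 and MSRB8 are uncertain to the extent that reads of FAMT and MSRB7, at a mean of 110 ± 36.1 and 232 ± 16.6 CPM (SD, n = 3) in JA WT, could be counted for them. MSRB7 was at a mean of 17.2 CPM in mock WT while MSRB8 was at 0.150, and in mock lhp1 these were 28.0 and 0.294.

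In 2 pairs the relative moved the other way. GRXS13, at 45.5% identity to GRX480, fell from 13.4, 17.2 and 14.6 CPM in mock WT to 6.87, 6.89 and 6.87 in JA WT, by 1.00 ± 0.09 on the log2 scale (edgeR adjusted p = 1.55e-05). scpl31, at 79.9% identity to scpl30, went from 3.13, 9.83 and 4.79 to 0.586, 2.01 and 2.70 CPM and fell by 1.59 ± 0.45 (edgeR adjusted p = 0.0349). The call of scpl31 was lost without mock WT replicate 2 (edgeR adjusted p = 0.104), JA WT replicate 1 or 2 (0.0858 and 0.0815) or any 1 mock lhp1 library (0.0548 to 0.0598). It was also lost in a fit of the 2 groups alone (0.0947). CLA1, the main deoxyxylulose phosphate synthase and 78.8% identical to DXPS1, stood at 418, 379 and 445 CPM in mock WT and 408, 450 and 459 in JA WT, a difference of 0.20 ± 0.08 that did not pass (edgeR adjusted p = 0.124). PAP2, 78.7% identical to PAP1, was too low to be tested, at 0.273, 0.134 and 0.0954 CPM in JA WT. Of the 3 relatives of PAP1 that were tested, 1 was called higher and 0 lower. That gene, MYB113, had 0, 0 and 0 counts in mock WT, 2, 0 and 1 in mock lhp1 and 27, 26 and 20 in JA WT. It rose by 7.61 ± 0.93 on the log2 scale (edgeR adjusted p = 0.000456) but stayed below 2 CPM.

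**Figure D4:**
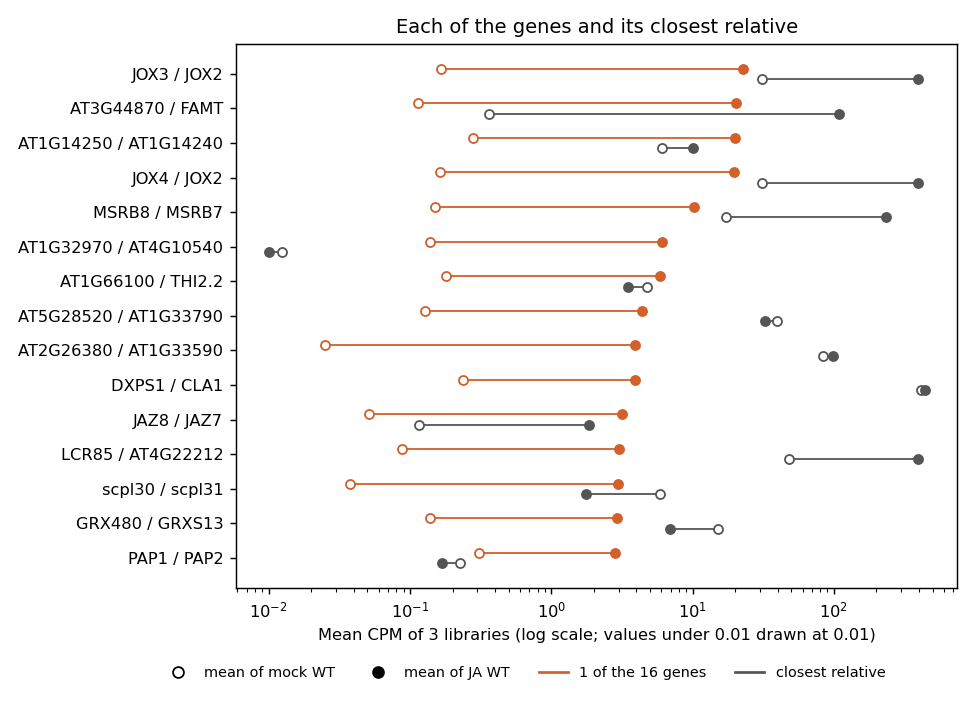
Mean CPM of 3 libraries on a log axis in mock WT (open) and JA WT (filled) for 15 of the 16 genes (orange) and for the closest relative by protein of each (grey), with a line joining the groups. Most relatives start above 0.5 CPM in mock WT, JOX2 at a mean of 31.1 and CLA1 at 414, while the 16 genes start at 0.0250 to 0.308.

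Widening to every related gene, 92 genes outside the 16 passed the identity and length limits, and 72 of them were tested, with 22 called higher and 9 lower, against 8.62% higher and 7.07% lower among all genes tested. No difference from that background was tested for any family. Of the 92, 68 were above 0.5 CPM in a mock WT library and 19 were at or under it in all 9 libraries. The methionine sulfoxide reductases had 4 of 7 called higher (MSRB7 by 3.88 and MSRB4 by 0.77 on the log2 scale, with MSRB6 and MSRB9 in between). The relatives of the lectin AT5G28520 split, with 4 of 15 tested called higher, among them AT5G35940 by 4.57 and MBP1 by 3.23, and 3 called lower. Of the 7 subtilisin-like relatives tested 1 was called higher and 1 lower, and 9 of the 16 relatives of AT1G32970 were at or under 0.5 CPM in every library.

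The motif AACGTG, searched on both strands in the 250 bases before the start, was found in 7 of the 16 genes (43.8%) against 7.6% of the 26712 protein-coding genes with that sequence. Among genes called higher that are not of the 16 it was found in 298 of 1765 (16.9%), and in 139 of 613 (22.7%) of those called at least 2-fold higher, a class that holds 3.08% of all genes tested. It was in 5.46% of genes called lower and 6.91% of those tested and not called. Of the closest relatives 4 of 14 held it (28.6%), and of the adjacent genes 6 of 29 (20.7%). The full G-box CACGTG was found in 1 of the 16, JAZ8 (6.25%, against 6.58% of all), and CATGTG in 2 (12.5% against 11.2%). Any of the 3 forms was in 9 (56.2% against 23% of all). GCCGCC, the box of ERF factors, was found in 0 of the 16 (1.85% of all), TTGACC, a W-box form, in 5 (31.2% against 12.2%) and TTGACT, another, in 1 (6.25% against 19.1%). With 1000 bases AACGTG was found in 10 of the 16 (62.5%) against 23.9% of all. These matches describe letters and are no evidence of binding, and the motifs were chosen with the jasmonate response in mind.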

How the data were processed

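RNA of 9 libraries was analysed, in 3 groups of 3. The authors deposited raw read counts per gene, not normalized, and per the submitters' processing notes they used TopHat, HTSeq and edgeR with TAIR10. Use of the strand and the counting of reads with several matches are not given in the sources used here. The table held 3 further columns that match no sample, which were not used. The design text calls the replicates biological.

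Levels are counts divided by the library total, in CPM, and per kilobase of merged exons in RPKM. Calls come from edgeR 4.0.16 in R 4.3.3 (TMM, filterByExpr, quasi-likelihood test, two-sided, Benjamini-Hochberg over 20986 genes, 0.05) on all 9 libraries with no covariate, checked on simulated counts. DESeq2 1.42.0 was an alternative. Standard errors were derived as the absolute log2 fold change over the square root of F and are approximate. Intervals of ratios are exact binomial ones at 95% from pooled counts. Relatives were found with blastp (BLAST+ 2.17.0) among RefSeq proteins of TAIR10.1, to which 32835 of 33602 genes were matched by locus. The closest relative is the one with the highest alignment score, which need not have the highest identity. Figures were drawn with matplotlib 3.10.9.

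The genes, lists and markers were chosen with earlier results of these data known. All of the 16 genes are named. Of neighbours and closest relatives, those called with the largest change, up to 6 each, are named, and other genes are named to show the limits of the rule, the lists and the families. The wider families, the motifs in sets of called genes and the count of neighbours that are relatives were added after the data were seen. Alternatives were other scalings, filters, thresholds and fits, and leaving out each library.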

Additional observations from a re-analysis of the deposited data

How the results depend on the processing

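The number of genes chosen was 16 and moved with its own limits. It was 25 with a JA WT threshold of 1 CPM, 6 with 5 CPM, 5 with a ceiling of 0.25 CPM, 31 with a ceiling of 1 CPM and 27 by group means. It was 18 with TMM or DESeq2 size factors, 19 with the ceiling in mock WT alone, and 16 to 19 when each library was left out. All 16 were called higher than mock WT in every fit run (8.62% of all genes tested in the main fit), and nothing is read from this since the rule used the contrast. Neighbours called higher were 9, 8 with total counts, 7 in a fit of the 2 groups alone and 7 to 10 without 1 library. Neighbours called lower were 1, with 2 under total counts, DESeq2 and the replicate block, 0 in the fit of 2 groups, and 0 to 2 without 1 library. Closest relatives called higher were 7, with 6 under total counts, 5 in the fit of 2 groups, 5 to 7 without 1 library and 6 of 9 at 60% identity. Relatives called lower were 2, with 1 to 2 without 1 library and 1 at 60% identity. Leaving out each replicate in turn gave 65 choices with TMM scaling and 61 with total counts, where a gene can be counted once per replicate. Of these, 54 and 48 met all thresholds in the replicate left out. Those are the full sets of 18 and 16 genes counted each time, so the numbers were fixed by construction and nothing is read from them. Scaling by total counts moved the median log2 fold change of all genes to -0.12 from 0.00045. AACGTG was in 7 of the 16 genes within 250 or 500 bases and in 10 within 1000, the longer windows having been added after the data were seen.

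Deviations of libraries with the same replicate number correlated at 0.215, 0.0313 and 0.133 between mock WT and JA WT, and those with different numbers at -0.201 to 0.0852. For each mock WT replicate the same-number value was the highest. Same-numbered libraries of mock lhp1 correlated at -0.0766, -0.0106 and 0.0403 with mock WT and at -0.0724, 0.0103 and 0.00994 with JA WT. The main fit did not take the numbers as pairs, and a fit with a replicate block was run beside it. With the replicate block 9 neighbours were called higher and 2 lower, and 7 closest relatives higher. There too 16 of the 16 genes were called higher, from which nothing is read since the rule used the contrast. The 0.5 CPM ceiling is 9 to 13 counts in the mock libraries, so levels and ratios in the mock groups rest on few counts.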

Other observations

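The reverse rule, chosen after the data were seen, asked for at least 2 CPM in all 6 mock libraries and at most 0.5 CPM in all 3 JA WT libraries, and was met by 1 gene. HFR1, a bHLH protein of light and shade responses (chr1:465616-467880), stood at 2.37, 2.50 and 2.13 CPM in mock WT, at 3.08, 2.38 and 2.23 in mock lhp1 and at 0.429, 0.313 and 0.445 in JA WT. No test is given, since the rule used these values.

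No gene met the same limits in mock lhp1 alone, with both other groups at or under 0.5 CPM. Without mock WT replicate 2 that number was 44. No gene met them in mock WT alone.

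Some genes that came close were set apart by libraries of replicate number 1. For AT4G09200 these were the JA WT and the mock lhp1 library, and for AT5G50630 the JA WT library alone. AT4G09200, annotated as an SPRY-domain protein, had 8, 80 and 123 counts in JA WT replicates 1 to 3, 9, 12 and 12 in mock WT, and 182, 7 and 5 in mock lhp1. AT5G50630, annotated as a major facilitator superfamily protein, had 2, 46 and 92 counts in JA WT, against 2, 6 and 2 in mock WT and 1, 4 and 1 in mock lhp1.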
